A study of Mus musculus with 12 samples.

Results

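The 9 enzyme genes *Sqle*, *Lss*, *Cyp51*, *Msmo1*, *Nsdhl*, *Hsd17b7*, *Ebp*, *Sc5d* and *Dhcr7*, which carry squalene to cholesterol, were taken by name from the gene count matrix, 9 of 24453 genes, and were followed in pathway order across 4 lines of mouse embryonic fibroblasts (MEFs). All 9 passed the filter on low counts that left 14026 genes for testing. RNA from 12 libraries, 3 biological replicates per line, had been sequenced to ask what loss of PNPase, a mitochondrial exoribonuclease encoded by *Pnpt1*, does to gene expression. All 4 lines descend from TM6, a C57BL6/J line that was immortalized with SV40 large T-antigen and carries the *Pnpt1* fl/fl (neo-flox) alleles, so the controls carry them too. The rho0 line is TM6 kept for 3 weeks in ditercalinium at 750 ng/mL, which removes mitochondrial DNA (mtDNA), and then grown out from 1 colony. PKO-1 and PKO-6 are TM6 clones that grew from single cells after adenoviral Cre, which cuts exon 2 out of *Pnpt1*. The study found both clones to lack mtDNA as rho0 does. Cells of all lines were harvested at 70 to 80% confluence from medium with 10% serum and uridine at 50 µg/mL. Each derived line is thus 1 clone whose replicates are cultures of it, and ditercalinium, Cre, deletion and clonal outgrowth cannot be told apart from mtDNA loss.

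Cells build cholesterol from acetyl-CoA. The mevalonate pathway ends in squalene, a chain without rings. SQLE then adds an epoxide, LSS folds the chain into the 4 rings of lanosterol, CYP51 removes a methyl group at carbon 14, and MSMO1, NSDHL and HSD17B7 act in turn to strip the methyl groups at carbon 4. EBP moves a double bond, SC5D adds another, and DHCR7 makes the last reduction on the route through 7-dehydrocholesterol. All of these proteins sit in the membranes of the endoplasmic reticulum, and many of the steps use molecular oxygen. Their genes are textbook targets of SREBP-2, a transcription factor that is held in that membrane while sterols are plentiful and is cut free to enter the nucleus when they run short.

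Sequence upstream of the genes was read first, because SREBP-2 is known to bind sterol regulatory elements next to CCAAT and GC boxes. RefSeq promoters of GRCm38.p6 were at hand for 8 of the 9 genes, all but *Sqle*, and both strands of the 250 bases before each start site were searched. A relaxed sterol regulatory element, TCACNNCAC, was in 2 of the 8, *Msmo1* and *Hsd17b7*, against 3.11% of all 32851 promoters. The CCAAT box, CCAAT, was in 7 of the 8, all but *Dhcr7* (33.8% of all). The GC box, GGGCGG, was in all 8 (32.7% of all), and the E-box, CACGTG, was in *Hsd17b7* and *Sc5d* (6.02% of all). The forms of the motifs were settled after the matches had been seen. Windows of 4 genes are printed 5′ to 3′ on the strand of the gene and end at the base before its start site: *Msmo1* and *Hsd17b7* for the relaxed element, *Nsdhl* because it faces another gene, and *Dhcr7* for the lack of a CCAAT box. Capitals mark CCAAT, its reverse complement ATTGG, and matches to TCACNNCAC. A match is a run of letters and not evidence of binding.

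Msmo1, chr8:64733579-64733828, minus strand: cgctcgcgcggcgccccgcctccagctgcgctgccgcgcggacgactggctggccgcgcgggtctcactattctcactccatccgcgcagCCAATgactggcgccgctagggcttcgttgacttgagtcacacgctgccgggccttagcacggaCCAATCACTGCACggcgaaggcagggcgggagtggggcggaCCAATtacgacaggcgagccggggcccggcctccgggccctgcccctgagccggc

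Nsdhl, chrX:72918345-72918520, plus strand: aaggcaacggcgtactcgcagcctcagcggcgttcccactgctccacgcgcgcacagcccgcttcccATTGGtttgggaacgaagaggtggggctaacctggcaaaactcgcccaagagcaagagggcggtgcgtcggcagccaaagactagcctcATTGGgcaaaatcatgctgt

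Hsd17b7, chr1:169969206-169969408, minus strand: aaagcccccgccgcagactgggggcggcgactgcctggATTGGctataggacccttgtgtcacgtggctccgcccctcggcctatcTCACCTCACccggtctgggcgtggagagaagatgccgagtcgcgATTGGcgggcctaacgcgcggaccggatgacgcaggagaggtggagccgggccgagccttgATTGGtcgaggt

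Dhcr7, chr7:143822917-143823166, plus strand: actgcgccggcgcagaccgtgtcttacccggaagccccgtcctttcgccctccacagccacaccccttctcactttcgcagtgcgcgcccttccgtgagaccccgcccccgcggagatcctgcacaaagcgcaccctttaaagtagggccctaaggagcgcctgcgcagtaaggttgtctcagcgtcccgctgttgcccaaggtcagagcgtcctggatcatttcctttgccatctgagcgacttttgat

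In *Msmo1* the middle CCAAT, 96 bases before the start, shares letters with the relaxed element, TCACTGCAC, 92 bases before it. In *Hsd17b7* the relaxed element reads TCACCTCAC and begins 117 bases before the start. The windows of *Nsdhl* and *Hsd17b7* are shorter, at 176 and 203 bases, since a gene on the other strand starts there.

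Libraries held 47164860 to 67991378 expected counts, of which 12.2 to 19.6% fell on *Rn45s*, the ribosomal RNA precursor. The 9 genes had raw counts from 234 to 16041, so none was near the filter. Values below are normalized counts, that is counts scaled by edgeR's TMM factors to a library of mean size. *Pnpt1*, counted over the whole gene although Cre removes only exon 2, had 3131 ± 262 in TM6, 5271 ± 230 in rho0, 1240 ± 44.3 in PKO-1 and 1944 ± 250 in PKO-6 (all SD, n = 3). Of 10 fibroblast markers, the summed level was 429025 to 473527 in TM6, 215843 to 267145 in rho0, 360476 to 380766 in PKO-1 and 145376 to 189443 in PKO-6. *Lum* was at 0 in all rho0 libraries and *Thy1* in all PKO-6 libraries, but in TM6 they had only 7.70 ± 4.31 and 2.81 ± 2.55 normalized counts. Sums for 5 epithelial markers were 254 to 276 in TM6 and 409 to 471 in rho0. In PKO-1 they were 815 to 842, and in PKO-6 they were 107 to 136. Those for 5 haematopoietic markers were 73.6 to 201 over the lines (*Adgre1* and *Cd3e* at 0 in every library). Those for 4 endothelial markers were 20.3 to 86.8 in TM6, rho0 and PKO-1 and 158 to 177 in PKO-6. *Col1a1*, *Col1a2* and *Vim* made up most of the fibroblast sum. By line means, *Cd68* made up most of the haematopoietic sum, and *Kdr* was the largest part of the endothelial sum. In the epithelial sum *Krt18* led in TM6, rho0 and PKO-1, with means of 242, 430 and 816. *Epcam* led in PKO-6, with a mean of 88.02, against 4.35 in TM6, 8.15 in rho0 and 1.46 in PKO-1. Between the clones, *Krt18* was called higher and *Epcam* lower in PKO-1. Of 9 tested fibroblast markers, 3 were called lower in rho0, and in PKO, with the clones pooled, 2 were called lower and 1, *Dcn*, higher. The clones differed: 8 of the 9 were called higher in PKO-1 than in PKO-6, where 11.5% of tested genes were. The part of these markers in the results was not tested. In these bulk samples, fewer cells of a type and less RNA per cell cannot be told apart.

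All 9 genes fell in rho0 and in PKO MEFs relative to TM6. Against TM6, 9 of 9 were called lower in rho0, where 15.6% of all tested genes were, and 9 of 9 were called lower in PKO, where 12.2% were. A call required a log2 fold change beyond 0.5 in either direction with an adjusted p under 0.01 in edgeR's quasi-likelihood test, with Benjamini-Hochberg adjustment over the 14026 genes and with both clones pooled as PKO. The median log2 fold change of the 9 was -2.25 in rho0 and -2.26 in PKO, while the median of all tested genes was 0.018 and 0.029. Values ran from -2.87 to -1.75 in rho0 (edgeR adjusted p 3.67e-08 to 1.31e-06) and from -3.10 to -1.33 in PKO (edgeR adjusted p 4.13e-09 to 2.70e-06). Both comparisons used the same 3 TM6 libraries. For each of the 9 genes the lowest TM6 library exceeded the highest of the 9 derived libraries, by 2.01 times for *Hsd17b7* to 6.72 times for *Nsdhl*, and 20.0% of all tested genes had TM6 above the other 9 libraries in this way. Fitted as 4 separate lines, all 9 genes were called lower in rho0 (21.4% of tested genes), in PKO-1 (17.9%) and in PKO-6 (19.4%).

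**Figure D1:**
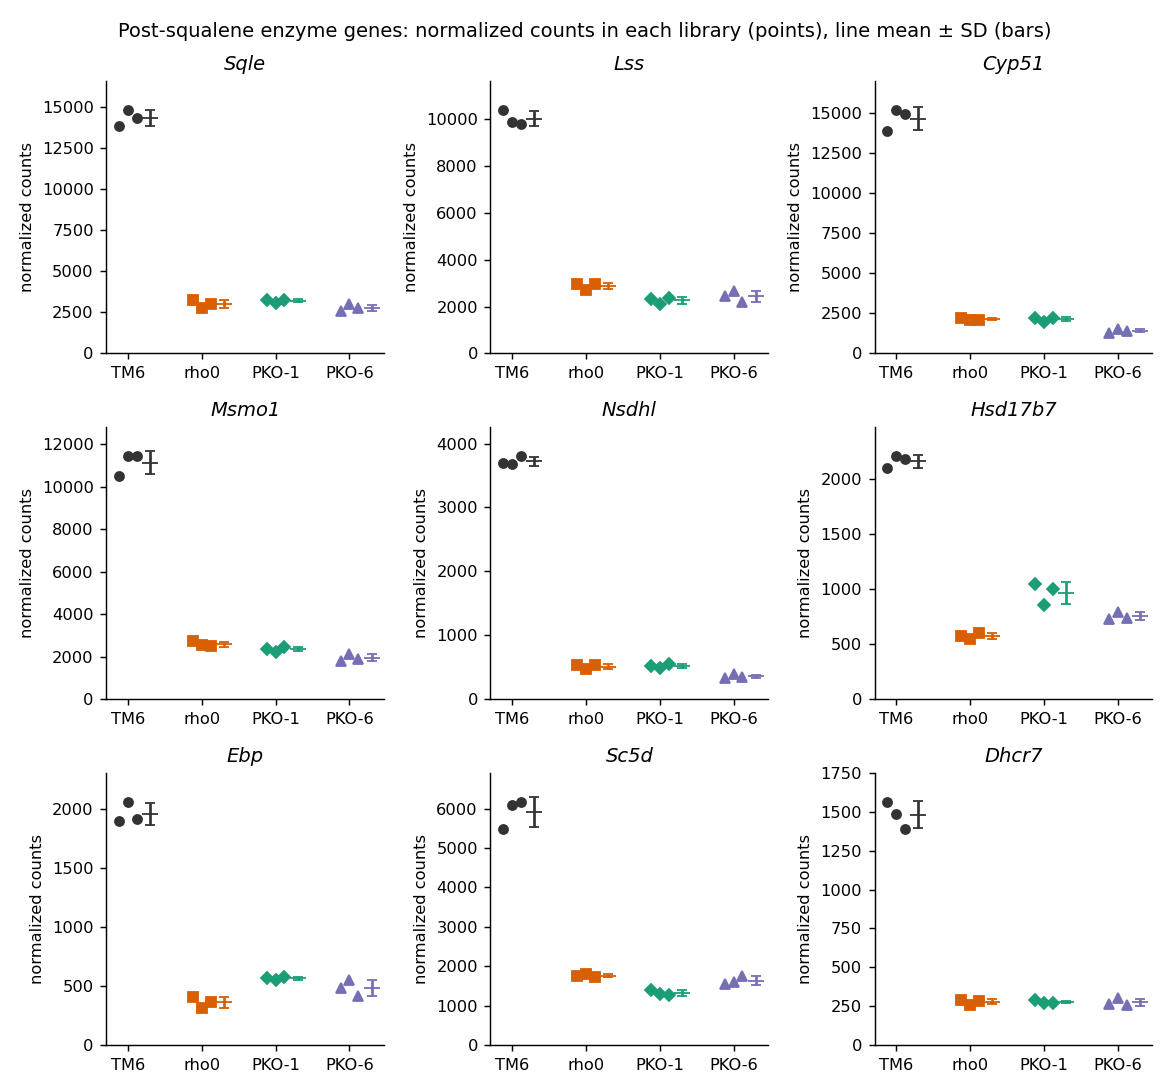
Normalized counts (linear vertical axes from 0, a scale for each gene) of the 9 enzyme genes in the 4 lines; points are the 3 libraries of a line and bars beside them the mean ± SD. In every panel the 3 TM6 points stand above all 9 points of rho0, PKO-1 and PKO-6; for *Hsd17b7* and *Ebp* all 6 PKO points stand above the 3 rho0 points.

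*Sqle*, which encodes the epoxidase that is 1 of the rate-limiting enzymes of the pathway, lies on chromosome 15 from 59315092 to 59331193 (GRCm38, plus strand, 11 exons). Its normalized counts were 13813, 14781 and 14325 in TM6 replicates 1 to 3, 3253, 2776 and 2985 in rho0, 3251, 3089 and 3247 in PKO-1, and 2589, 2984 and 2726 in PKO-6. Rho0 overlapped both clones and PKO-1 lay above PKO-6, with 21.0 ± 1.67% (rho0), 22.3 ± 0.65% (PKO-1) and 19.3 ± 1.40% (PKO-6) of the TM6 mean left (SD of 3 libraries). *Sqle* fell by 2.25 on the log2 scale in rho0 (SE 0.099) and by 2.26 in PKO (SE 0.079). PKO and rho0 differed by -0.01 (SE 0.083, edgeR adjusted p = 0.929).

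*Lss*, which encodes the cyclase that makes lanosterol, lies on chromosome 10 (76531605 to 76557139, plus strand, 22 exons). Replicates 1 to 3 of TM6 had 10395, 9899 and 9824 normalized counts, those of rho0 2978, 2718 and 2943, those of PKO-1 2309, 2112 and 2381, and those of PKO-6 2443, 2680 and 2211. All 6 PKO libraries lay below the 3 rho0 libraries, and the clones overlapped, with 22.6 ± 1.39% (PKO-1) and 24.4 ± 2.34% (PKO-6) of TM6 left against 28.7 ± 1.41% in rho0. The log2 fold change was -1.80 in rho0 (SE 0.086) and -2.09 in PKO (SE 0.070). The difference of PKO from rho0, -0.29 (SE 0.072, edgeR adjusted p = 0.0108), was not called.

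*Cyp51*, which encodes the cytochrome P450 that takes the first methyl group off lanosterol, lies on chromosome 5 (4080674 to 4104697, minus strand, 10 exons). Normalized counts in replicates 1 to 3 were 13870, 15186 and 14925 in TM6, 2181, 2075 and 2109 in rho0, 2184, 1972 and 2235 in PKO-1, and 1300, 1507 and 1421 in PKO-6. Rho0 and PKO-1 overlapped at 14.5 ± 0.37% and 14.5 ± 0.95% of TM6, and all PKO-6 libraries lay lower, at 9.61 ± 0.71%. *Cyp51* fell by 2.79 in rho0 (SE 0.201) and by 3.05 in PKO (SE 0.158) on the log2 scale. With 4 lines fitted, PKO-6 fell by 3.38 (SE 0.070), or 10.4-fold, and PKO-1 fell by 2.78 (SE 0.068).

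*Msmo1*, which encodes the oxidase that opens the removal of the methyl groups at carbon 4, lies on chromosome 8 (64718145 to 64733578, minus strand, 6 exons). The 3 libraries of each line, in replicate order, held 10501, 11436 and 11420 normalized counts for TM6, 2717, 2526 and 2507 in rho0, 2364, 2238 and 2431 in PKO-1, and 1804, 2131 and 1892 in PKO-6. The 3 derived lines did not overlap: rho0 was highest at 23.2 ± 1.04% of TM6, PKO-1 was at 21.1 ± 0.88% and PKO-6 at 17.5 ± 1.52%. The log2 fold change was -2.11 in rho0 (SE 0.112) and -2.38 in PKO (SE 0.090). Neither step of the order among the derived lines was called (edgeR adjusted p = 0.0774 for rho0 over PKO-1, and 0.00288 with a log2 difference of 0.27 for PKO-1 over PKO-6). With the median of chromosome 8 removed, the difference between the clones turned to -0.05.

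*Nsdhl*, the dehydrogenase gene of the same reaction series, lies on the X chromosome (72918521 to 72958528, plus strand, 8 exons). In replicates 1 to 3, normalized counts were 3690, 3675 and 3806 in TM6, 533, 469 and 529 in rho0, 514, 482 and 547 in PKO-1, and 334, 386 and 349 in PKO-6. As for *Cyp51*, rho0 (13.7 ± 0.97% of TM6) and PKO-1 (13.8 ± 0.87%) overlapped and PKO-6 lay below both (9.57 ± 0.71%). *Nsdhl* had the lowest log2 fold change of the 9 in both comparisons, -2.87 in rho0 (SE 0.184) and -3.10 in PKO (SE 0.145). The 459 tested genes of the X chromosome were themselves lower than in TM6, with a median log2 fold change of -0.77 in rho0, -0.73 in PKO-1 and -0.89 in PKO-6. With the median of its chromosome removed, *Nsdhl* was still called, at -2.10 in rho0 and -2.30 in PKO.

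*Hsd17b7*, whose product reduces the ketone left at carbon 3 and so ends that series, lies on chromosome 1 (169949537 to 169969205, minus strand, 9 exons). TM6 replicates 1 to 3 had 2098, 2211 and 2182 normalized counts, rho0 had 573, 547 and 597, PKO-1 had 1044, 852 and 1004, and PKO-6 had 730, 793 and 737. The 3 derived lines did not overlap, with 26.5 ± 1.16% of TM6 left in rho0, 34.8 ± 1.60% in PKO-6 and 44.7 ± 4.68% in PKO-1. Neither step among them was called, since the log2 differences were under the fold threshold (0.36 for PKO-1 over PKO-6 and 0.39 for PKO-6 over rho0). *Hsd17b7* fell by 1.92 on the log2 scale in rho0 (SE 0.139) and by 1.33 in PKO (SE 0.112), which in PKO was the smallest fall of the 9.

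*Ebp*, the gene of the isomerase that shifts the double bond within the ring system, lies on the X chromosome (8185329 to 8193512, minus strand, 5 exons). Its normalized counts in replicates 1 to 3 were 1900, 2061 and 1912 in TM6, 408, 315 and 360 in rho0, 564, 550 and 577 in PKO-1, and 479, 548 and 418 in PKO-6. PKO-1 was above PKO-6, which was above rho0, at 28.8 ± 0.70%, 24.6 ± 3.33% and 18.4 ± 2.38% of TM6. The lines did not overlap, but the lowest PKO-1 library had 550 and the highest PKO-6 library 548. Neither step of the order was called. The log2 difference was 0.23 for PKO-1 over PKO-6 (edgeR adjusted p = 0.0716) and 0.41 for PKO-6 over rho0 (edgeR adjusted p = 0.00478). The log2 fold change was -2.44 in rho0 (SE 0.138) and -1.91 in PKO (SE 0.109). With the median of the X chromosome removed it was still called, at -1.67 and -1.10.

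*Sc5d*, the desaturase gene, lies on chromosome 9 (42254177 to 42264300, minus strand, 6 exons). In replicates 1 to 3 TM6 had 5477, 6097 and 6176 normalized counts, rho0 had 1745, 1795 and 1733, PKO-1 had 1400, 1286 and 1278, and PKO-6 had 1559, 1586 and 1762. PKO-6 (27.6 ± 1.86% of TM6) overlapped rho0 (29.7 ± 0.55%), and PKO-1 lay below both (22.3 ± 1.15%). *Sc5d* fell by 1.75 in rho0 (SE 0.118) and by 2.00 in PKO (SE 0.096) on the log2 scale. Tested genes of chromosome 9 had a median log2 difference of -0.37 between PKO-1 and PKO-6, and *Sc5d* differed between the clones by -0.31 (SE 0.064), which was not called and turned to 0.06 with that median removed.

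*Dhcr7*, which encodes the last reductase, lies on chromosome 7 (143823167 to 143848410, plus strand, 9 exons). Normalized counts of replicates 1 to 3 were 1565, 1487 and 1392 in TM6, 291, 259 and 284 in rho0, 287, 272 and 270 in PKO-1, and 262, 302 and 259 in PKO-6. All 3 derived lines overlapped, at 18.8 ± 1.11%, 18.6 ± 0.63% and 18.5 ± 1.61% of TM6. *Dhcr7* fell by 2.41 in rho0 (SE 0.099) and by 2.43 in PKO (SE 0.078) on the log2 scale, and PKO differed from rho0 by -0.01 (SE 0.083, edgeR adjusted p = 0.911). The clones differed by 0.01 (SE 0.088, edgeR adjusted p = 0.924). Of the 9 genes, its 3 derived lines had the closest means.

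**Figure D2:**
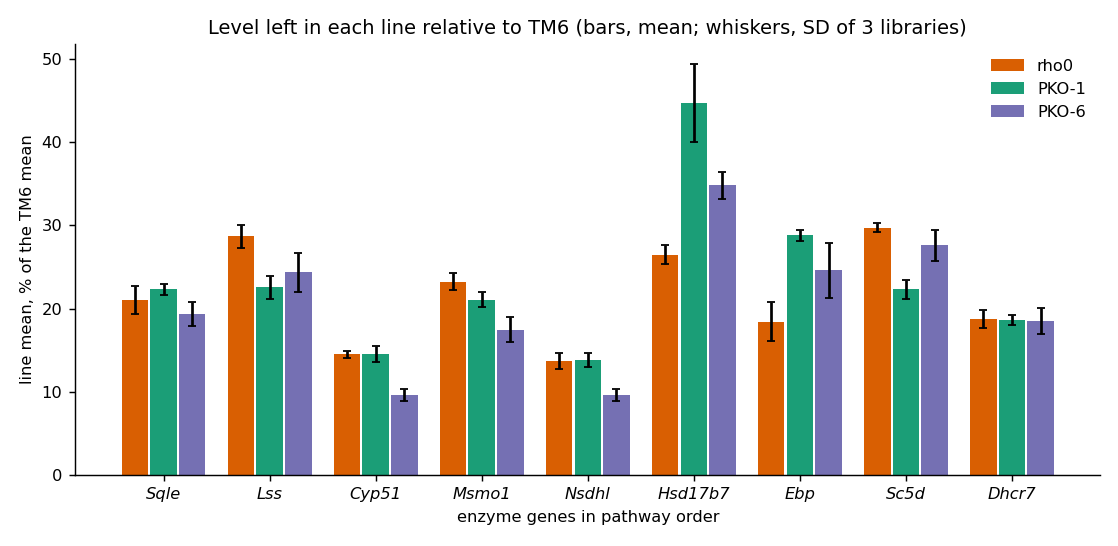
Level left in rho0, PKO-1 and PKO-6 as a percentage of the TM6 mean (linear axis from 0) for the 9 genes in pathway order; bars are line means and whiskers the SD of 3 libraries. Bars run from 9.57% (*Nsdhl* in PKO-6) to 44.7% (*Hsd17b7* in PKO-1), *Cyp51* and *Nsdhl* have lower bars in PKO-6 than in the other lines, and the bars of *Dhcr7* are level.

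**Figure D3:**
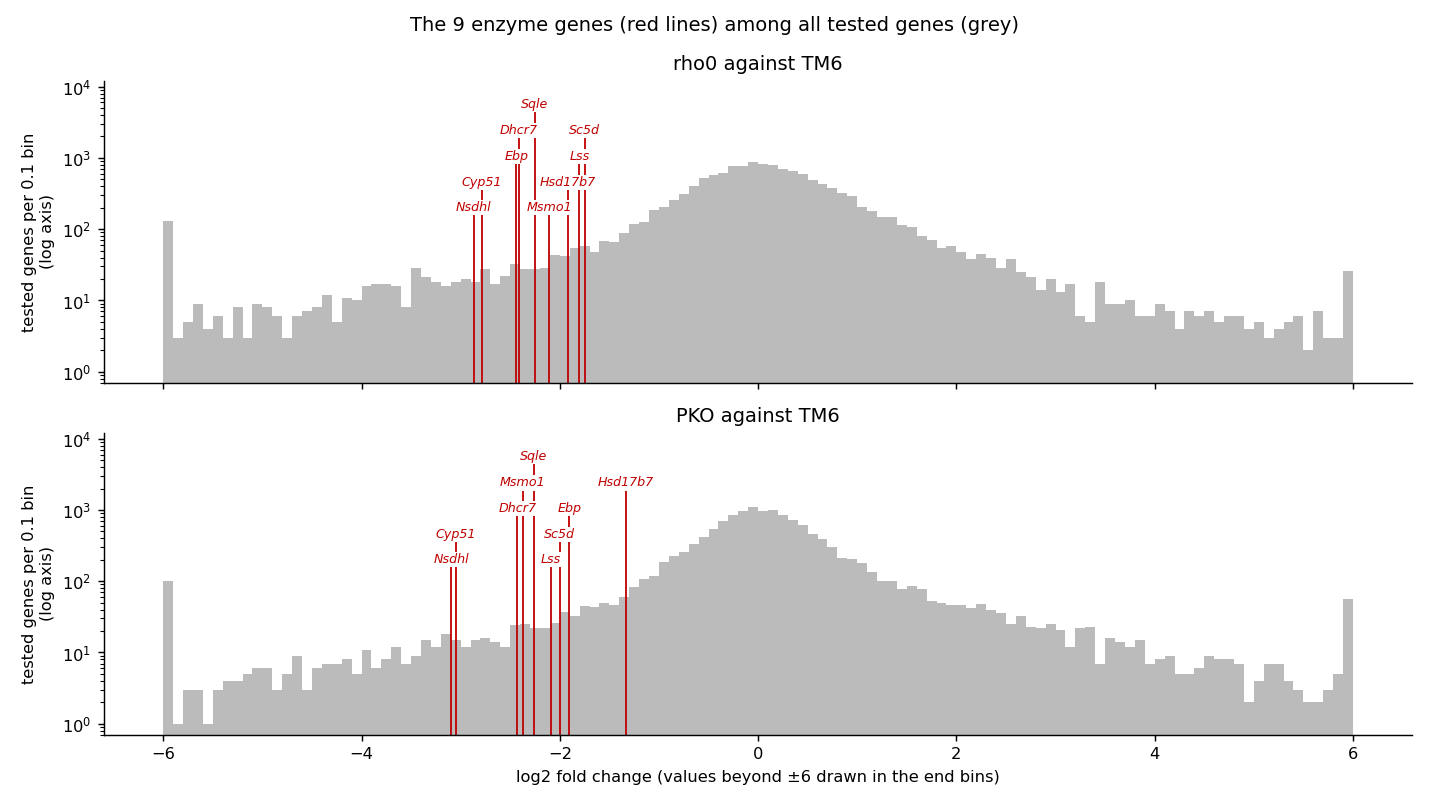
Log2 fold changes of all 14026 tested genes (grey histogram, bins of 0.1, logarithmic vertical axis) in rho0 against TM6 (top) and PKO against TM6 (bottom), with the 9 enzyme genes as red lines. In rho0 the lines lie between -2.87 and -1.75; in PKO they lie between -3.10 and -1.33, and *Hsd17b7* stands to the right of the other 8.

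Against the whole table, the enzyme genes were in the lower tail of both comparisons but not at its end. In rho0, 3.25% of tested genes had a lower log2 fold change than *Nsdhl* and 5.90% a lower one than *Sc5d*. In PKO, 2.06% were lower than *Nsdhl* and 5.55% lower than *Hsd17b7*.

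PKO and rho0 MEFs were then compared directly. Of the 9 genes, 2 were called higher in PKO, *Hsd17b7* and *Ebp*, and 0 were called lower, where 6.33% and 4.36% of tested genes were. *Hsd17b7* was higher by 0.59 on the log2 scale (SE 0.120, edgeR adjusted p = 0.00378) and *Ebp* by 0.53 (SE 0.117, edgeR adjusted p = 0.00553). For both, all 6 PKO libraries were above the 3 rho0 libraries, as for 17.2% of tested genes. Each gene can also be read within a library against the other 7 enzyme genes. *Hsd17b7* came to 3.53 to 3.54% of their summed counts in TM6, 4.19 to 4.56% in rho0, 7.44 to 8.48% in PKO-1 and 6.85 to 7.09% in PKO-6. *Ebp* came to 3.09 to 3.29% in TM6, 2.49 to 2.98% in rho0, 4.58 to 4.80% in PKO-1 and 3.93 to 4.74% in PKO-6. Relative to the other 7 genes, each was thus higher in PKO libraries than in TM6 or rho0 libraries. Since the 2 genes were set apart by their calls in PKO against rho0, the higher ratios than in rho0 restate those calls.

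Both calls were close to the thresholds. Clone by clone, PKO-1 was called above rho0 for *Hsd17b7* (0.75, SE 0.077) and *Ebp* (0.64, SE 0.106), the only 2 of the 9 genes called higher there (15.1% of tested genes). PKO-6 was above rho0 by 0.39 (*Hsd17b7*) and 0.41 (*Ebp*), under the fold threshold, with edgeR adjusted p = 7.02e-04 and 0.00478. The call of *Hsd17b7* was lost without rho0 replicate 1 (0.57), 2 (0.54) or 3 (0.60, all edgeR adjusted p 0.0174 to 0.0270). It was also lost with chromosome medians removed (0.50, edgeR adjusted p = 0.0120). That of *Ebp* was lost without rho0 replicate 2 (0.44) or 3 (0.52), any TM6 replicate (0.52 to 0.54) or any PKO-1 replicate (0.50 to 0.52). Neither gene was called when only PKO and rho0 were fitted (0.58 and 0.53, edgeR adjusted p = 0.0143 and 0.0177). Over all alternatives *Hsd17b7* kept its direction at 0.39 to 0.75 (adjusted p 1.4e-06 to 0.0270) and *Ebp* at 0.41 to 0.64 (adjusted p 1.3e-04 to 0.0378). For the other 7 genes the log2 difference of PKO from rho0 was between -0.29 and -0.01, with standard errors of 0.072 to 0.163. With chromosome medians removed it ran from -0.58 (*Cyp51*, edgeR adjusted p = 0.0148) to 0.06 (*Dhcr7*), and none of the 7 was called. *Sqle* went from -0.01 to -0.27 and *Lss* from -0.29 to -0.39, while *Msmo1* went from -0.27 to -0.20 and *Sc5d* from -0.25 to -0.04.

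The 2 clones differed from each other at some of the steps. *Cyp51* and *Nsdhl* were called higher in PKO-1 than in PKO-6, 2 of the 9 genes, where 11.5% of tested genes were called higher and 17.6% lower. The log2 difference was 0.60 for *Cyp51* (SE 0.066, edgeR adjusted p = 3.29e-06) and 0.53 for *Nsdhl* (SE 0.075, edgeR adjusted p = 3.1e-05). PKO-6 was also called below rho0 for these 2 genes, by -0.59 and -0.52 (8.16% of tested genes), while PKO-1 differed from rho0 by 0.01 for each (edgeR adjusted p = 0.948 and 0.897). In 6 of the 9 genes all PKO-1 libraries were above all PKO-6 libraries, and in 1, *Sc5d*, they were all below, against 33.0% and 33.5% of tested genes. With chromosome medians removed, the log2 difference between the clones turned for *Msmo1* (0.27 to -0.05) and *Sc5d* (-0.31 to 0.06) and shrank for *Ebp* (0.23 to 0.07). The call of *Nsdhl* was lost without PKO-1 replicate 3 or PKO-6 replicate 1 (0.49 each), and with the median of the X chromosome removed (0.37). That of *Cyp51* held without each library, at 0.54 to 0.65.

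Levels of the genes were compared with each other in the TPM of the libraries, which allow for transcript length. The 9 genes together had 742 ± 22.1 TPM in TM6, 158 ± 5.28 in rho0, 149 ± 11.2 in PKO-1 and 133 ± 9.05 in PKO-6 (all SD, n = 3). *Msmo1* was highest and *Sqle* next in every line, at 205 ± 9.42 and 169 ± 4.57 TPM in TM6, and the order below them shifted. In TM6 *Cyp51* followed at 106 ± 4.45 TPM, ahead of *Sc5d* at 86.8 ± 5.43, and in each derived line *Sc5d* was ahead. *Nsdhl* (55.4 ± 1.42) and *Lss* (49.5 ± 1.80) came next in TM6, then *Ebp* (38.0 ± 1.43), *Dhcr7* (17.04 ± 1.00) and *Hsd17b7* (14.9 ± 0.31). In the derived lines *Dhcr7* was lowest, at 3.15 ± 0.15 TPM in rho0 and 3.03 in both clones (SD 0.13 and 0.17).

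Shares of the summed TPM show the same shifts within libraries. *Cyp51* made up 14.3 ± 0.18% of the sum in TM6 and 9.62 ± 0.16%, 9.94 ± 0.25% and 7.43 ± 0.18% in rho0, PKO-1 and PKO-6. *Sc5d* went the other way, from 11.7 ± 0.40% in TM6 to 16.1 ± 0.93% in rho0 and 17.5 ± 1.64% in PKO-6, with 12.5 ± 0.62% in PKO-1. *Nsdhl* and *Hsd17b7*, which act 1 after the other, drew together. Per library, the TPM of *Nsdhl* was 3.59 to 3.79 times that of *Hsd17b7* in TM6, 1.85 to 2.00 times in rho0, 1.07 to 1.22 times in PKO-1 and 0.985 to 1.05 times in PKO-6, where the 2 levels did not differ beyond their spread. *Ebp* and *Lss* in PKO-1 (10.5 ± 0.67 and 10.7 ± 1.04 TPM) did not differ beyond it either.

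**Figure D4:**
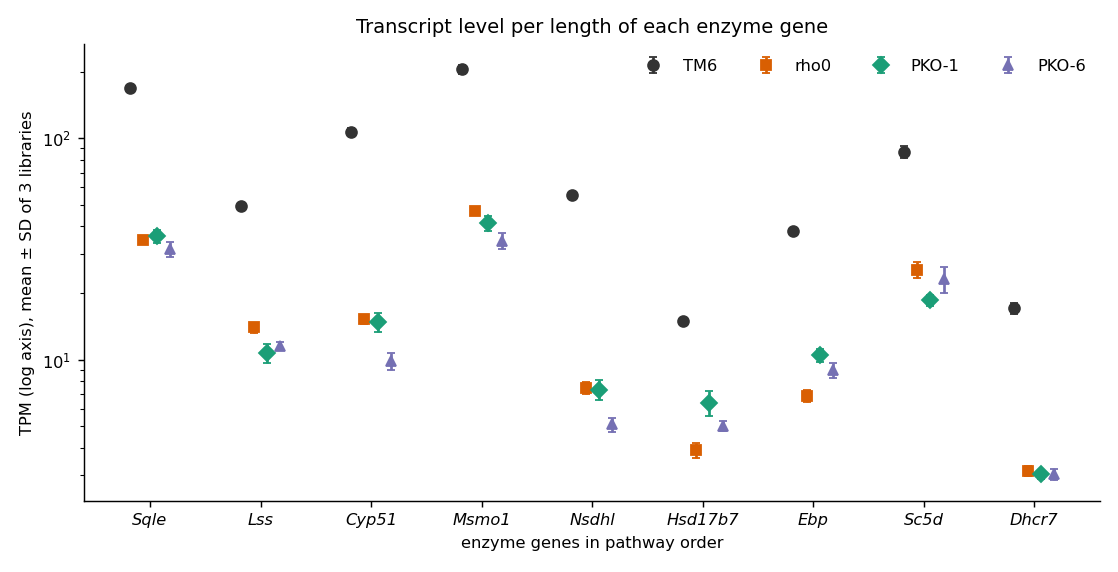
TPM (logarithmic axis) of the 9 genes in pathway order in TM6, rho0, PKO-1 and PKO-6; symbols are means and whiskers the SD of 3 libraries. TM6 runs from 14.9 (*Hsd17b7*) to 205 (*Msmo1*), every derived line is lower for every gene, and *Dhcr7* is the lowest symbol of each derived line.

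Genes around the pathway were counted on lists compiled by hand. The 9 genes from acetyl-CoA to squalene were all called lower in both comparisons, with medians of -2.13 in rho0 and -2.11 in PKO. *Hmgcs1*, whose product makes HMG-CoA, was at -2.38 and -2.72, and *Fdft1*, the squalene synthase gene, at -1.54 and -1.83. Among other post-squalene genes, *Lbr*, which encodes a nuclear envelope protein that is also a sterol reductase, was called at -0.59 and -0.56. *Tm7sf2*, the other gene for that reductase step, was at -0.30 and -0.24, and *0610007P14Rik*, a scaffold gene of the pathway, at -0.21 and -0.16, and neither was called.

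The oxidases and reductases take their electrons from partner proteins. Of 6 genes for these, 5 were called lower in rho0 and 1 in PKO, against 15.6% and 12.2% of tested genes. In PKO against rho0, 5 of the 6 were not called. *Por*, which encodes the reductase that feeds CYP51 and SQLE, fell by 0.74 in rho0 (8156 normalized counts in TM6 to 4893) but had 9777 in PKO-1 and 9049 in PKO-6, and it was called higher in PKO than in rho0 (0.94). *Cyb5r3*, the cytochrome b5 reductase gene, was called in both (-0.80 and -0.63). *Cyb5a* (-0.84), *Pgrmc1* (-0.86) and *Pgrmc2* (-0.52) were called in rho0 and were at -0.43, -0.48 and -0.41 in PKO. *Pgrmc1* lies on the X chromosome, whose tested genes had median log2 fold changes of -0.77 (rho0), -0.73 (PKO-1) and -0.89 (PKO-6). Its value was thus near that median for rho0 and less negative than either clone's median for PKO.

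Of 7 genes that control SREBP, 4 were called lower in rho0 and 3 in PKO, and 0 were called higher in either. *Srebf2*, which encodes SREBP-2 and is its own target, was called at -1.18 in rho0 and -1.74 in PKO, and was called lower in PKO than in rho0 (-0.56). *Srebf1*, the gene of the factor that favours fatty acid synthesis, was at -0.59 and -1.03, both called. *Insig1*, whose product holds SREBP in the endoplasmic reticulum, was at -1.91 and -2.41, and *Insig2* at -0.86 in rho0 and -0.31, not called, in PKO. *Scap*, the escort of SREBP, and the protease genes *Mbtps1* and *Mbtps2* were not called in either comparison. These PKO values pool clones that differed. Between the clones, *Insig2* (0.67) and *Mbtps1* (0.57) were called higher in PKO-1, and *Scap* was called lower (-0.54). Of all tested genes, 11.5% were called higher and 17.6% lower there. *Insig2* had 2428 normalized counts in TM6, 2402 in PKO-1 and 1510 in PKO-6, and *Scap* had 5875, 3454 and 5007.

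Uptake, efflux and turnover genes were mixed, and some were called higher than in TM6, as 13.7% (rho0) and 13.5% (PKO) of all tested genes were. Of 6 tested uptake and transport genes, 3 were called lower in rho0 and 3 in PKO. *Stard4*, a sterol carrier, was at -1.80 and -1.87, and *Scarb1*, the HDL receptor gene, at -0.88 and -0.65. *Npc1*, which exports cholesterol from lysosomes, was called higher in rho0 (0.57) and was at 0.43 in PKO. It lies on chromosome 18, whose 382 tested genes had a median log2 fold change of 0.40 in rho0, 0.38 in PKO-1 and 0.34 in PKO-6. Of 5 tested efflux genes, *Abca1*, a target of the sterol sensor LXR, was called at -3.24 in rho0 and -2.42 in PKO, *Mylip* was called in PKO (-0.83), and *Soat1*, which esterifies cholesterol, rose by 0.75 and 0.73. Of 5 genes for degradation of sterol enzymes, 1 was called lower in rho0 and 2 in PKO, with *Ube2g2* called in both (-0.95 and -0.73).

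On the branches of the mevalonate pathway that do not lead to sterols, 0 of 6 genes were called in rho0 and 0 were called lower in PKO. *Pdss2* and *Coq2*, which serve ubiquinone synthesis, were called higher in PKO (0.67 and 0.60) and were at 0.43 and 0.50 in rho0. The 6 genes had medians of 0.31 in rho0 and 0.11 in PKO.

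**Figure D5:**
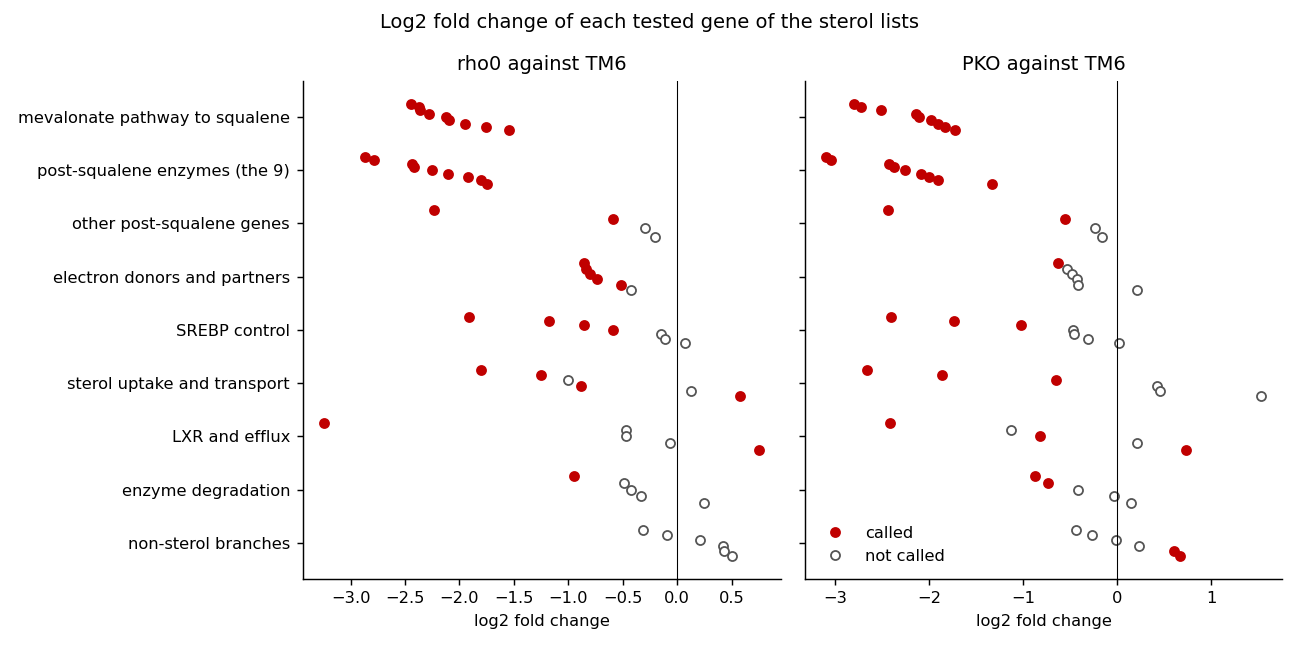
Log2 fold change of each tested gene of 9 lists around sterol synthesis in rho0 against TM6 (left) and PKO against TM6 (right); filled red points were called and open points were not. All 9 mevalonate genes and all 9 post-squalene enzymes are filled and negative, from -3.10 to -1.33 on the right for the post-squalene enzymes, whereas the non-sterol branches hold no negative filled point.

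The genes beside each member on its chromosome were read as a local comparison. Of the 18 nearest neighbours, 14 were tested, with 2 called lower in rho0 (*Cetn2* and *Tbc1d25*), 3 in PKO (these and *4930483K19Rik*) and 0 higher, and medians of -0.34 and -0.28. *Cetn2*, a centrosome gene whose start lies 177 bases from that of *Nsdhl* on the other strand, was at -1.39 in rho0 and -0.92 in PKO, against -2.87 and -3.10 for *Nsdhl*. *Tbc1d25*, next to *Ebp*, was at -1.22 and -1.21, and both it and *Cetn2* are on the X chromosome. *3110045C21Rik* starts 204 bases from *Hsd17b7* and had 63.1 ± 5.74 normalized counts in TM6, with log2 fold changes of -1.73 (edgeR adjusted p = 0.0150) and -0.99 (edgeR adjusted p = 0.0684), not called. *Nadsyn1*, 315 bases from *Dhcr7*, was at 0.35 and 0.34, not called, against -2.41 and -2.43 for *Dhcr7*. *4930483K19Rik* runs across *Lss* on the opposite strand, and with 56.5 ± 34.3 normalized counts in TM6 its log2 fold change in PKO was -3.65.

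The 10 tested genes whose log2 CPM followed the mean z-score of the 9 enzyme genes most closely over the 12 libraries had Pearson's r of 0.996 to 0.998. The value is a description, and it rests on the separation of the 3 TM6 libraries from the 9 others, which descend from TM6 as 3 clones. *Pmvk*, a mevalonate enzyme gene, *Elovl6*, a fatty acid elongase gene, and *Npr3*, a natriuretic peptide receptor gene, were the 3 expressed in every library, at 2272, 10267 and 15809 normalized counts in TM6 and at most 626, 3069 and 2127 in a derived library. *Pitx1*, at 493 in TM6, had at most 1.19 in a derived library. *Hoxd13*, *Hand2*, *Hoxc11* and *Evx2*, which encode transcription factors, *Mmp2*, a matrix protease gene, and *Cadm1*, an adhesion gene, had 58.4 to 1489 in TM6 and were at 0 in all 9 derived libraries.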

How the data were processed

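Expression was analysed in 12 RNA-seq libraries, 3 replicates of each of TM6, rho0, PKO-1 and PKO-6. The authors depleted ribosomal RNA, made stranded libraries, sequenced paired ends, merged technical duplicates, and ran RSEM with bowtie2 against RefSeq transcripts of mm10 (GRCm38). The deposited values are expected counts, not normalized, summed per gene in 1 table; 12.5% of values had decimals, and all were rounded to whole numbers. The deposited TPM values of the single libraries, which allow for length, served to compare genes. Summing each library's transcripts gave the gene table to within 0.04 counts.

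Tests used R 4.3.3 and edgeR 4.0.16: filterByExpr (minimum count 10), TMM, the quasi-likelihood test in 3 groups (TM6, rho0, PKO) and, for single clones, in 4 lines, with Benjamini-Hochberg adjustment over 14026 genes. A standard error is the log2 fold change over the square root of F. Replicates of a line differed beyond sampling noise in every pair. Nothing says that they came from separate derivations, so p-values of the fit in 4 lines measure the spread between cultures. In the fit in 3 groups, libraries of both clones count as replicates of PKO, so its spread also holds the difference between the clones. The biological coefficient of variation, edgeR's measure of that spread, was 0.248 with 3 groups and 0.0837 with 4 lines. This spread also enters rho0 against TM6, where the standard error of *Cyp51* was 0.201 with 3 groups and 0.0677 with 4 lines. The fit was tested on simulated data. For the 3-group comparisons both clones were given the same mean for each gene, so the simulation could not test the pooling of clones that differ.

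The 9 genes, the lists and the rule for named genes were chosen with earlier results of these data known. That rule names the 9 genes, list genes called against TM6, *Srebf1* and *Srebf2*, the nearest gene start on either side, the 10 genes most alike in pattern and *Pnpt1*; *Scap*, *Mbtps1*, *Mbtps2*, *Tm7sf2* and *0610007P14Rik* were named outside it, after their values were seen. Some genes that the rule admits are withheld for evaluation and are not reported here. Alternatives were DESeq2 1.42.0 (size factors, Wald test), limma 3.58.1 on log2(TPM + 1), no filter, a replicate block, chromosome medians removed, 4 lines, each clone alone, only the compared groups, an absolute log2 threshold of 1, and each library left out.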

Additional observations from a re-analysis of the deposited data

Results flagged for a closer look

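The differences below were picked out because the change from TM6 differed between rho0 and PKO, or between the clones, by the test of the difference itself. In PKO against rho0, *Hsd17b7* differed by 0.59 and *Ebp* by 0.53 on the log2 scale, higher in 6 of 6 PKO libraries than in any rho0 library. In PKO-1 against PKO-6, *Cyp51* differed by 0.60 and *Nsdhl* by 0.53, higher in 3 of 3 PKO-1 libraries than in any PKO-6 library. Over the 6 PKO libraries, no gene of the 9 had a highest or lowest library set apart from the rest by Dixon's test. The clones did not overlap for most of the 9 genes, so this test could miss a library set apart within its clone. The groups of 3 libraries were not tested for this.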

How the results depend on the processing

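All 9 genes were called lower than TM6 under every alternative run, 21 for rho0 and 23 for PKO. Medians moved with chromosome medians removed (-1.91 in rho0, -2.11 in PKO), limma on TPM (-2.12, -2.16), PKO-1 alone (-2.16) and PKO-6 alone (-2.37). In PKO against rho0 the 2 calls became 0 with a log2 threshold of 1, with only the compared groups fitted, with limma on TPM and with a replicate block, 1 with chromosome medians removed (*Ebp*), and 0 to 2 with a library left out. Its median was 0.0056 with PKO-1 alone and -0.12 with PKO-6 alone. Under the replicate block *Hsd17b7* stayed at 0.59 (adjusted p = 0.0118) and *Ebp* at 0.53 (adjusted p = 0.0156), and the other comparisons kept their counts of called members, 9, 9 and 2. No label says that the numbers pair the libraries. Deviations of 18 same-numbered pairs correlated at -0.385 to 0.250, with 10 above 0.1, among them all pairs of TM6 and PKO-6; other pairs reached -0.415 to 0.490, and 4 of 12 libraries were closest to their own number. Between the clones the 2 calls became 0 with the threshold of 1, 1 with chromosome medians removed (median 0.093), 1 with limma, and 1 to 2 with a library left out (median 0.20 to 0.33, the highest without PKO-6 replicate 2). Signs turned for some members. In PKO against rho0 they turned with PKO-1 alone for *Sqle* (0.089), *Cyp51* (0.0056) and *Nsdhl* (0.012), with chromosome medians removed for *Dhcr7* (0.063), and with a library left out for *Sqle* (-0.074 to 0.031) and *Dhcr7* (-0.071 to 0.0035). Between the clones they turned with no filter for *Dhcr7* (-0.0031), with chromosome medians removed for *Lss* (0.093), *Msmo1* (-0.052), *Sc5d* (0.060) and *Dhcr7* (-0.091), and with a library left out for *Dhcr7* (-0.026 to 0.086). Over all genes, the threshold of 1 left 2042 of 4111 calls in rho0, 1788 of 3607 in PKO, 667 of 1500 in PKO against rho0 and 1950 of 4087 between clones. PKO-6 alone gave 5799 calls against TM6. In PKO against rho0, 4 lines gave 3330 calls, PKO-1 alone 4590, PKO-6 alone 3014, and the fits without rho0 replicate 2 or 3 gave 853 and 841. With limma on TPM, the share of calls that were higher was 39.2% in PKO against TM6, against 52.4%. The cause of these shifts was not tested.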
